A study of Homo sapiens with 2 samples.

Results

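The miR-193 and miR-365 clusters are 2 related pairs of microRNA (miRNA) genes, and 7 probes for their mature arms were followed in exosomes, small vesicles that cells release. The probes were chosen by name from the scanner output, as every probe whose name or shared name was hsa-miR-193a-5p, hsa-miR-193a-3p, hsa-miR-193b-5p, hsa-miR-193b-3p, hsa-miR-365a-5p, hsa-miR-365b-5p or hsa-miR-365a-3p. All 7 names were found, on 7 of the 2565 miRNA probes of the array. The exosomes came from a pair of HuH-7 cultures, labelled HuH-7-M and HuH-7-P. HuH-7 is an established human hepatocellular carcinoma cell line. The labels do not spell out M and P and give no treatment, clone or passage, and the series title speaks of highly intrahepatic metastatic lines of this cancer. Both cultures were grown with 10% fetal bovine serum and moved to advanced DMEM, and vesicles were pelleted at 110000 g. Each culture gave 1 array with 1 spot per miRNA, so no difference below has a replicate and none was tested. In pooled vesicles, fewer vesicles that carry a miRNA and less of it per vesicle cannot be told apart.

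A miRNA hairpin can give a mature strand from either side, named 5p and 3p, and usually one of them is loaded into Argonaute to repress messenger RNAs paired to its seed, bases 2 to 8. MIR193B and MIR365A lie side by side on chromosome 16, and MIR193A and MIR365B on chromosome 17, a layout that goes back to a duplication of one ancestral pair. The 3p strands are the well-studied ones. miR-193a-3p and miR-193b-3p repress messages for growth and survival factors such as MCL1 and, for miR-193b-3p, cyclin D1 and urokinase, and both are often described as tumour suppressors. miR-365-3p represses, among others, the message of interleukin 6, and in mice the miR-193b and miR-365 cluster has been studied in brown fat and muscle cell fate. The 5p strands are studied less, although miR-193a-5p has also been described as a tumour suppressor.

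The 4 hairpins are shown because the layout of the arms decides what each probe can tell apart. Sequences and positions are those of RefSeq on GRCh38.p14, all on the plus strand, and capitals mark the mature arms, 5p first.
MIR193B, chr16:14303967-14304049: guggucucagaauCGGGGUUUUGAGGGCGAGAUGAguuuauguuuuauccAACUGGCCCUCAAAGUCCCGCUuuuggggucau
MIR365A, chr16:14309285-14309371: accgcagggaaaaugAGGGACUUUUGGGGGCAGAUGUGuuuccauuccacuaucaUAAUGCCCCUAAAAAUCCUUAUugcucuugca
MIR193A, chr17:31559996-31560083: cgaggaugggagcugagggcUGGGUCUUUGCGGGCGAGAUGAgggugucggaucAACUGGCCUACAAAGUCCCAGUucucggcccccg
MIR365B, chr17:31575411-31575521: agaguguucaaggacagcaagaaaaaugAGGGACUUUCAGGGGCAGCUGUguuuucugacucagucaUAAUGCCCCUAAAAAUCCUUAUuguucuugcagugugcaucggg
MIR193B and MIR365A were 5235 bases apart, and both lie within MIR193BHG, a long non-coding RNA gene at chr16:14301381-14331062. MIR193A and MIR365B were 15327 bases apart. MIR365B lies within the long non-coding RNA gene MIR365BHG (chr17:31571142-31575659), and MIR193A overlapped no other gene of the annotation.

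The mature strands are given next with the seed in capitals, since strands of one seed share most predicted targets.
hsa-miR-193a-5p: uGGGUCUUugcgggcgagauga
hsa-miR-193b-5p: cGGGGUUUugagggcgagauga
hsa-miR-365a-5p: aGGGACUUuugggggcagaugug
hsa-miR-365b-5p: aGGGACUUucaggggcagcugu
hsa-miR-193a-3p: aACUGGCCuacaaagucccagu
hsa-miR-193b-3p: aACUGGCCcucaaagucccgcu
hsa-miR-365a-3p: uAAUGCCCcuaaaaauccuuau
hsa-miR-365b-3p: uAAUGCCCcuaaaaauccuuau
The 3p strands of MIR365A and MIR365B were identical over 22 bases, so 1 probe reads both loci and carries both names. miR-193a-3p and miR-193b-3p shared a seed and 18 of 22 bases. miR-365a-5p and miR-365b-5p also shared a seed and 19 of the first 22 bases, with differences U10C, G11A and A19C, counted from the 5′ end with the miR-365a-5p base first. miR-193a-5p and miR-193b-5p shared 18 of 22 bases but not the seed, the differences being U1C, U5G, C6U and C11A with the miR-193a-5p base first. Among the 2264 probes matched to a RefSeq mature sequence, no other probe had any of these 5 seeds. How far a probe also binds the close relative of its target was not tested.

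Signal is given as the spot median in the Cy5 channel minus the mean of the 320 BLANK spots of the same array, in arbitrary units, and the SD of the BLANK spots was 1.63 on HuH-7-M against 1.64 on HuH-7-P. A probe counted as above background if its spot median passed a limit drawn from BLANK, at 61.2 on HuH-7-M against 62.3 on HuH-7-P. This held for 1671 miRNA probes on HuH-7-M against 1669 on HuH-7-P, and 1593 passed on both. A stricter limit came from 85 brighter spots labelled No Probe, at 89.6 on HuH-7-M against 86.5 on HuH-7-P, and 800 miRNAs passed it on both. Brightness also depends on how well a probe binds, so signals are compared between arrays and not between probes. The hepatocyte miRNA miR-122-5p had a signal of 67.7 on HuH-7-M against 39.98 on HuH-7-P, above both limits. Another hepatocyte miRNA, miR-192-5p (24.0 on HuH-7-M against 27.8 on HuH-7-P), passed the No Probe limit on HuH-7-P alone. The neural miR-124-3p also passed both limits on each array, at 47.4 on HuH-7-M against 46.5 on HuH-7-P. miR-126-3p of endothelium was not above background on either array, and the erythroid miR-451a (11.1 on HuH-7-M against 12.03 on HuH-7-P) passed only the BLANK limit.

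All 4 of the 5p strands were brighter than the No Probe limit on each array, and none of the 3 probes for 3p strands did on either. Of the 5p strands only miR-365a-5p had a higher value in HuH-7-M exosomes, by 1.66-fold from 1 spot per array. Its relative miR-365b-5p had a lower value there, at 0.719 of HuH-7-P. miR-193b-5p was slightly lower and miR-193a-5p nearly equal. These folds come from normalized values (normexp background correction on the BLANK spots, an offset of 50, quantile normalization), and differences are log2, HuH-7-M less HuH-7-P. No member reached the 2-fold threshold, against 2.2% of the 1593 measured miRNAs past it, with 7 higher (0.439%) and 28 lower (1.76%) in HuH-7-M. Scaling each array to its median over measured probes instead gave 20 higher and 24 lower, again with no member. The median of the 6 measured members was -0.08, with 1 above and 5 below 0, and the median of all measured miRNAs was 0.01, with quartiles of -0.07 and 0.10.

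**Figure D1:**
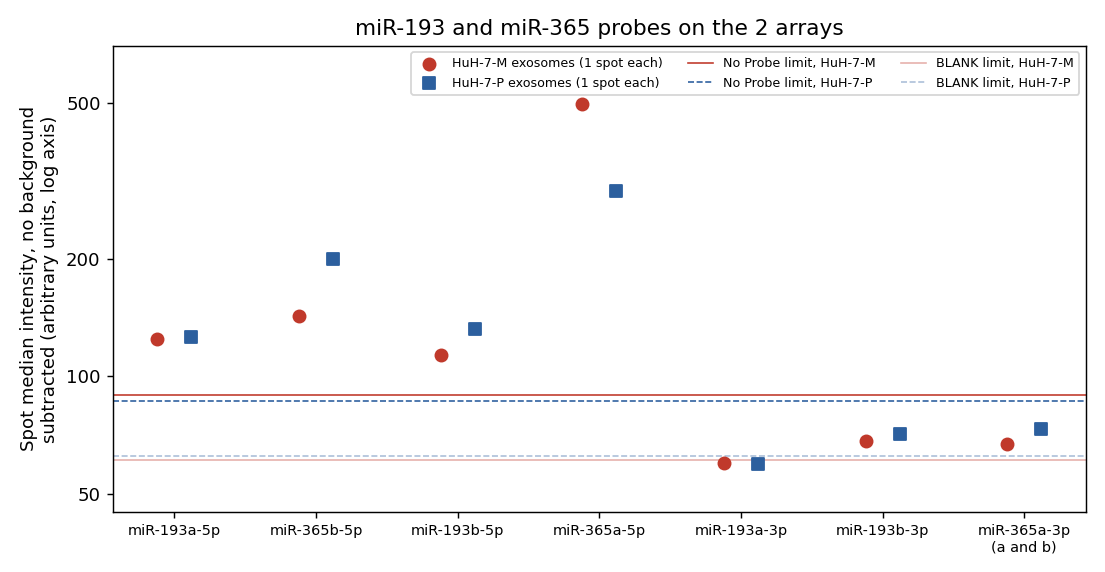
Spot median intensity of each probe (arbitrary units, log axis, nothing subtracted) for HuH-7-M (circles) and HuH-7-P (squares), with 1 spot per point and the limits of each array as lines. The 4 probes for 5p strands lie between 113 and 497, above the No Probe limits of 89.6 (HuH-7-M) and 86.5 (HuH-7-P), and the 3 probes for 3p strands lie below them.

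On chromosome 16, miR-365a-5p had a signal of 438 on HuH-7-M against 239 on HuH-7-P, a normalized log2 difference of 0.73. Repeated spots of 4 control probes of similar brightness varied with a log2 SD of 0.13, so a difference of 2 single spots carries a spread of 0.18 from the spots alone, and the miR-365a-5p difference was 4.03 times that. This spread leaves out the cultures, the RNA preparations and the arrays. Between the arrays, 7 control probes with repeated spots over 100 units ranged from -0.02 to 0.995 without scaling, with a median of 0.66. Of these, 3 stood further above 0 than miR-365a-5p, which was at 0.76 on that scale, and 1 was below 0. Their part in the miR-365a-5p value was not tested. A difference of 0.73 or more in this direction was seen in 26 of the 1593 measured miRNAs (1.63%). Among the 114 other measured miRNAs within 0.5 log2 units of its mean brightness, differences had a median of 0.01 and quartiles of -0.15 and 0.30, so the value of miR-365a-5p lay outside this middle range.

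Its neighbour miR-193b-5p, from the hairpin upstream in the same host gene, went the other way in sign. It read 54.7 on HuH-7-M against 72.3 on HuH-7-P, a normalized difference of -0.20, which is 1.10 times the spread from the spots. Among 422 miRNAs of similar brightness the quartiles were -0.08 and 0.12. The 2 strands of this cluster that stood above the No Probe limit therefore had values on opposite sides of 0.

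On chromosome 17, miR-365b-5p had a signal of 84.0 on HuH-7-M against 140 on HuH-7-P. The normalized difference was -0.48, or 2.63 times the spread from the spots, and 65 measured miRNAs (4.08%) were as low or lower. The 239 miRNAs of similar brightness had quartiles of -0.12 and 0.19. miR-193a-5p read 65.5 on HuH-7-M against 66.0 on HuH-7-P, with a difference of -0.01, well within the spread. The 2 strands of the chromosome 17 pair above the No Probe limit thus also differed from each other, with miR-365b-5p on the lower side.

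**Figure D2:**
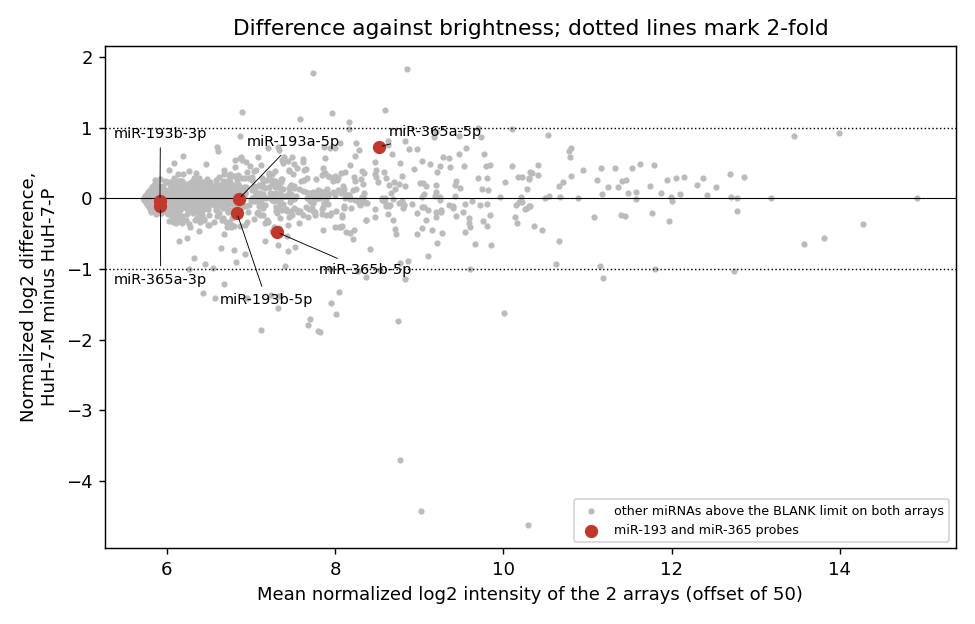
Normalized log2 difference, HuH-7-M less HuH-7-P, against the mean normalized log2 intensity of both arrays for the 1593 miRNAs above the BLANK limit on both (grey), with the 6 measured members in red and 2-fold marked by dotted lines. miR-365a-5p (0.73) and miR-365b-5p (-0.48) stand away from 0 on opposite sides, and the other 4 lie between -0.20 and -0.01.

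The strands best known for their targets were dim. miR-193a-3p was not above background on either array, with a signal of 1.25 on HuH-7-M against -0.17 on HuH-7-P, so no fold is given for it. miR-193b-3p passed only the BLANK limit, with 9.65 on HuH-7-M against 11.4 on HuH-7-P. Its difference in signal, HuH-7-M less HuH-7-P, was -1.79, smaller in size than the spread of 2.31 that the BLANK spots alone give to a difference of 2 signals, and its normalized difference was -0.04. The shared miR-365a-3p and miR-365b-3p probe read 8.33 on HuH-7-M against 13.4 on HuH-7-P, apart by 2.20 times that spread, with a normalized difference of -0.11. The offset pulls such dim values together. In the authors' deposited table, which carries no offset, the value rebuilt from this probe's spot was at -0.65 and miR-193b-3p at -0.21. Both probes lay below the mean of the No Probe spots. With that mean subtracted, the HuH-7-M signal of miR-193b-3p was -12.7.

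On the normalized values, the gap between miR-365a-5p and miR-365b-5p was wide beside that of other pairs of one seed. Their normalized differences stood 1.21 log2 units apart, and they were the highest and the lowest of the measured members. The comparison was added after these values were seen, so the rank of the pair is a description only. Over the array, 103 pairs of miRNAs shared bases 2 to 8 and passed the No Probe limit on each array, and their median gap was 0.29. Only 4 pairs, that of miR-365 included, had a gap this wide, the others being miR-663a with miR-6787-5p, miR-6837-5p with miR-4685-5p, and miR-4700-5p with miR-4667-5p. Pairs in the wider set share miRNAs and are not independent, and 42 of the 103 had opposite signs. They were drawn by seed alone, whether or not the miRNAs come from related genes, so they set no expectation for related genes. With the scanner's background column removed, miR-365a-5p was at 0.027 and miR-365b-5p at -0.0020, nearly without a gap. That column tracked the spot median (r = 0.99 on each array, log scale). Its removal therefore takes out much of the signal and cannot decide whether there is a gap. With values of the authors' deposited table matched to the spots, the miR-365 gap was 1.61, and 5 of the 103 pairs were as wide. Any binding of each miRNA to the other's probe was not measured here.

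**Figure D3:**
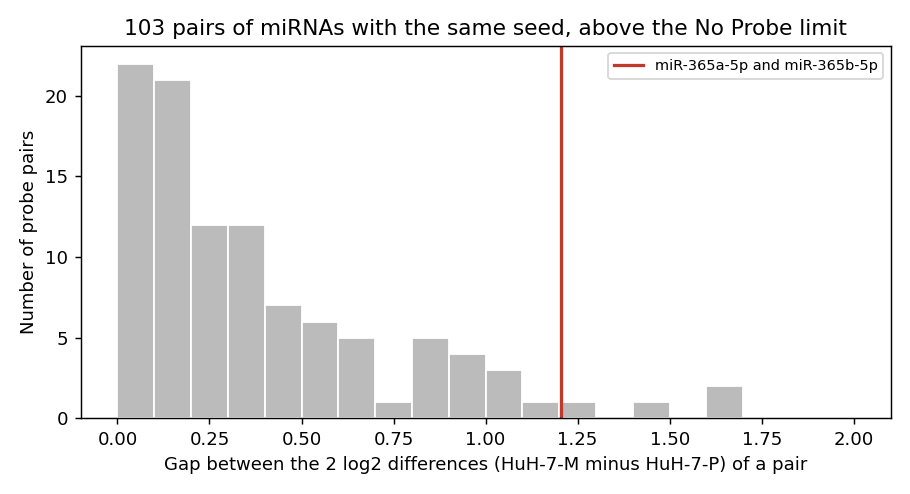
Number of probe pairs (vertical axis) by the gap between their 2 normalized log2 differences, for 103 pairs of miRNAs with the same seed brighter than the No Probe limit on each array. The red line marks miR-365a-5p with miR-365b-5p at 1.21, beyond the median gap of 0.29, with 3 pairs to its right.

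miR-365a-5p was above 0 and miR-365b-5p below 0 under each background correction, scaling and value source tried, although both came close to 0 with the scanner's background column removed. All of these start from the same spots, so a shared sign is not independent support. miR-365a-5p was higher in HuH-7-M exosomes at 0.88 as a plain BLANK-subtracted ratio without scaling, and at 0.91 in the authors' deposited table. miR-365b-5p was at -0.74 as a plain ratio and at -0.70 in the value of the authors' deposited table that was rebuilt from its spot. That value stands there under another identifier, as does that of the miR-365-3p probe. The row of the table that carries the identifier of miR-365b-5p is at -0.12, and which source names the probes correctly is not known. miR-193b-5p was at -0.40 as a plain ratio and at -0.37 in the authors' deposited table. No member passed 2-fold in that table either, where 8.08% of 1585 miRNAs did, 3.91% higher and 4.16% lower. Scaling to the Spike Control spots, which were brighter on HuH-7-M by 0.51 and 0.66 (log2), shifted the median of all measured miRNAs to -0.58. There miR-365a-5p was at 0.17 and miR-365b-5p at -1.09, past 2-fold lower as were 4.58% of the measured miRNAs, while 0.126% were higher and 4.71% passed either way. Relative to that median the values were 0.76 for miR-365a-5p and -0.50 for miR-365b-5p.

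A second intensity column of the scanner output is headed as background but correlated with the spot median across probes (r = 0.99 on each array, log scale). What it holds is not stated. With that correlation it is not an independent measurement. It was also read as a signal. After subtracting its own BLANK mean, miR-365a-5p read 417 on HuH-7-M against 237 on HuH-7-P, and miR-365b-5p 69.6 on HuH-7-M against 128 on HuH-7-P. The ratios were 0.81 and -0.87 (log2), in the directions given above. For miR-193a-5p the columns differed, with 63.6 on HuH-7-M against 40.5 on HuH-7-P (0.65) against its near-equal spot medians. This shift was larger than the spread of 0.18 that the spots give. Using this column as a background to be removed left the 4 strands between -0.06 and 0.03.

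**Figure D4:**
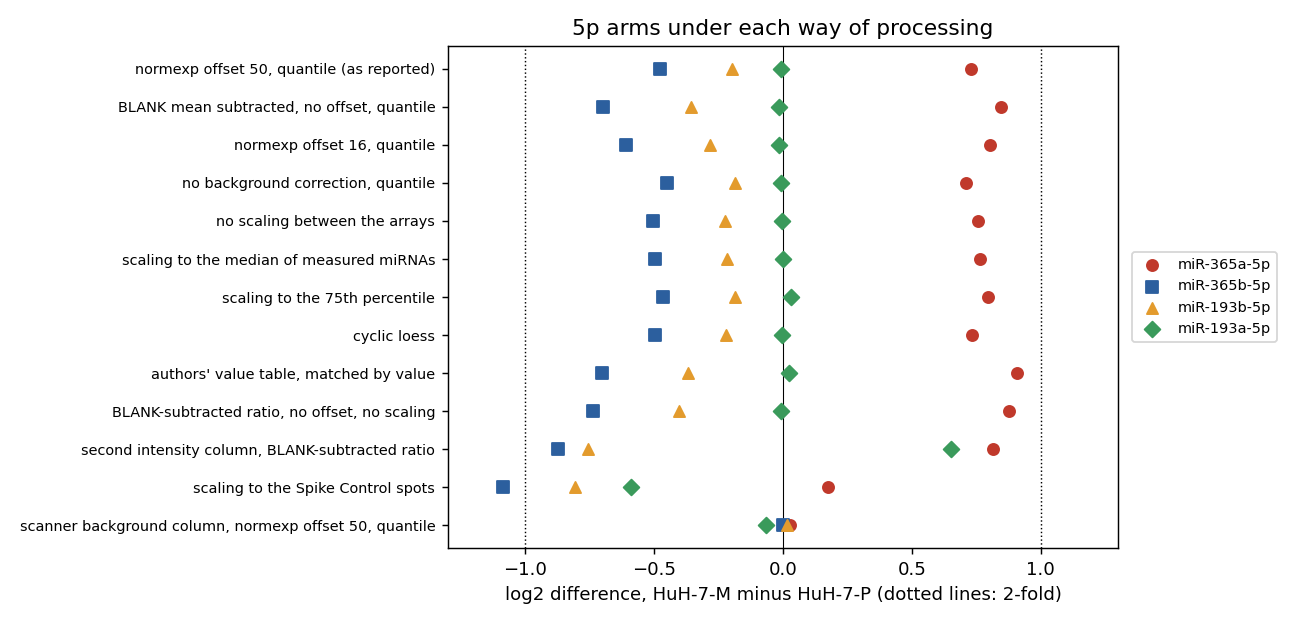
Log2 difference, HuH-7-M less HuH-7-P (horizontal axis), of the 4 probes for 5p strands under each background, scaling and value source tried (rows), with 2-fold as dotted lines. miR-365a-5p lies between 0.03 and 0.91 and miR-365b-5p between -1.09 and -0.002, with the values nearest 0 in the bottom row.

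The 5p and 3p strands also differed in base composition, which the choice of members did not use. Guanine made up 40.9% of miR-365b-5p, 45.5% of miR-193a-5p, 47.8% of miR-365a-5p and 50% of miR-193b-5p. It made up 18.2% of both miR-193-3p strands and 4.55% of the miR-365-3p strand, against a median of 27.3% over the 2264 probes with a sequence. Of the 465 probes with at least the guanine share of miR-365b-5p, 402 (86.5%) passed the No Probe limit on each array, as did 296 of the other 1799 (16.5%). Of the 611 probes at or below the share of the miR-193-3p strands, 110 (18.0%) passed. The 4 members rich in guanine were on the side where most probes of this array passed, and the 3 poor in it on the side where fewer did. Over all miRNA probes, with or without a sequence, 800 of 2565 passed. Any part of the guanine share in the brightness of the members was not tested. Over the 781 hairpins with both arms on the array, only the 5p arm passed this limit in 160 (20.5%) and only the 3p arm in 64 (8.20%).

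**Figure D5:**
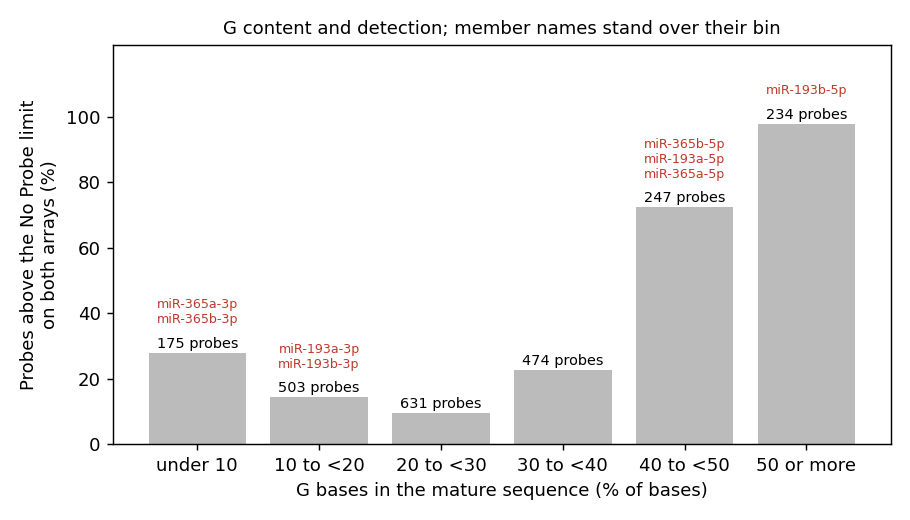
Share of probes brighter than the No Probe limit on each array (vertical axis, %) by the guanine share of the mature sequence (horizontal axis, 6 bins with their number of probes), with the members named over their bin. The bins of the 5p members reach 72.5% and 97.9%, and those of the 3p members 28.0% and 14.3%.

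The guanine share was only weakly related to the difference between arrays, with Spearman's rho = 0.09 and Pearson's r = 0.07 over 1408 measured miRNAs of these 2 arrays, given as a description. For the share of guanine and cytosine together these were 0.17 and 0.13. The 459 measured miRNAs at or above the share of miR-365b-5p had a median difference of 0.04, with quartiles of -0.09 and 0.20. miR-365a-5p lay above and miR-365b-5p below that range. Any part of base composition in these 2 differences was not tested.

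Within 1 Mb of the clusters, RefSeq's miRNA table gave 10 other miRNA genes with 16 mature names on the array, of which 14 were measured on both arrays. None passed 2-fold after normalization, and their median difference was 0.00. In the authors' deposited table miR-4725-3p and miR-6770-5p (1.12) were past 2-fold higher, as were 3.91% of all measured miRNAs. miR-6770-5p was dim, at 8.69 on HuH-7-M against 4.09 on HuH-7-P. MIR4725 ends 52 bases before the start of MIR365B on the same strand. Its 3p strand, miR-4725-3p, read 2614 on HuH-7-M against 1150 on HuH-7-P, a normalized difference of 0.67 and one of 1.22 in the authors' deposited table, while miR-365b-5p beside it had a lower value in HuH-7-M. The 5p strand, miR-4725-5p, read 24.1 on HuH-7-M against 27.2 on HuH-7-P (-0.04). Further off on chromosome 17, miR-4733-3p was at 0.20, miR-4733-5p at -0.03 and miR-4724-5p at -0.02. On chromosome 16 the measured neighbours all have copies at other loci. miR-6770-3p was at 0.28, miR-6511a-5p at 0.23, miR-6770-5p at 0.12, miR-6511b-3p at 0.03, miR-3179 at 0.01 and miR-6511b-5p at 0.00. miR-6511a-3p was at -0.05, miR-3180-5p at -0.07 and miR-3180 at -0.14.

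The 3 miRNAs with values nearest to those of miR-365a-5p over the 2 arrays were miR-4674 (422 on HuH-7-M, 234 on HuH-7-P), miR-4492 (475 on HuH-7-M, 259 on HuH-7-P) and miR-3195 (479.8 on HuH-7-M, 255 on HuH-7-P). Their Euclidean distances in normalized log2 units were 0.05, 0.16 and 0.16, over 2 arrays only. This distance rests on the brightness of different probes, which also depends on how each binds, and is given as a description.

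Other miRNAs known to repress the same kinds of targets were dim, like the 3p members. Most probes of the array were dim too, with 800 of 2565 past the No Probe limit on both arrays. Of 13 miRNAs known to repress cyclin D1, 7 were measured and none passed 2-fold, nor the No Probe limit on both of the arrays. Their median was -0.17, between miR-34a-5p (17.5 on HuH-7-M against 40.02 on HuH-7-P, -0.40) and miR-449a (0.05). Of these 7, 4 were past 2-fold lower in the authors' deposited table, as were 4.16% of all measured miRNAs. Of 8 that repress MCL1, 3 were measured, with a median of -0.09, between miR-133b (-0.19) and miR-125b-5p (0.02). The median was -0.79 in the authors' deposited table, with 1 of the 3 past 2-fold lower, against 4.16% of all measured miRNAs. None of the 3 passed the No Probe limit on both arrays. Of 21 probes for miRNAs of fat cells and brown fat 12 were measured, with a median of -0.04 and none past 2-fold, between miR-34a-5p and miR-378a-3p (0.08). In the authors' deposited table, which carries no offset, their median was -0.52. There 3 of the 12 were past 2-fold lower, against 4.16% of all measured miRNAs. None of the 12 passed the No Probe limit on both arrays. The list also holds miR-27b-3p, at 197 on HuH-7-M against 0.98 on HuH-7-P, where it was not above background. HuH-7-M exosomes stood at least 4.69-fold higher on the normalized scale, set against the lowest value above background on the HuH-7-P array. This bound rests on 1 spot per array, and a fault of the spot was not tested. Its relative miR-27a-3p read 2.48 on HuH-7-M against 5.98 on HuH-7-P. A paralogous pair of clusters of like layout, that of miR-23, miR-27 and miR-24, had 6 of 11 probes measured with a median of 0.01, between miR-27a-3p (-0.08, and -1.23 in the authors' deposited table) and miR-23a-3p (0.25). miR-27b-3p belongs to it too, and with that probe the signals of all 11 summed to 584 on HuH-7-M against 370.4 on HuH-7-P. Of 10 hepatocyte probes 7 were measured, with a median of 0.00. miR-885-3p (164 on HuH-7-M against 384 on HuH-7-P) was past 2-fold lower at -1.03, and miR-122-5p was highest at 0.41.

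Most markers of other cell types did not pass the No Probe limit on both arrays, nor did most hepatocyte probes. The same holds for most probes of the array, where 800 of 2565 passed it on both. Of 7 blood miRNAs 4 were measured, none past the No Probe limit on both of the arrays, and the signals of all 7 summed to 40.9 on HuH-7-M against 41.5 on HuH-7-P. Of 7 probes for muscle and neural miRNAs, 4 passed background on both arrays. Of these, miR-124-3p alone (47.4 on HuH-7-M against 46.5 on HuH-7-P) passed the No Probe limit on both. All 7 summed to 68.7 on HuH-7-M against 165 on HuH-7-P, of which miR-206 held 17.3 on HuH-7-M against 109 on HuH-7-P. Of 6 stromal and endothelial miRNAs 3 were measured, with sums of 87.1 on HuH-7-M against 67.8 on HuH-7-P. Of these 3, miR-214-3p alone (61.3 on HuH-7-M against 44.0 on HuH-7-P) passed the No Probe limit on both arrays. Among those measured, differences lay between miR-150-5p (-0.06) and miR-223-3p (-0.01) in blood, and between miR-199b-5p (-0.01) and miR-214-3p (0.25) in stroma. In muscle and brain they lay between miR-206 (-1.21, past 2-fold) and miR-124-3p (0.06). Their part in the values of the miR-193 and miR-365 strands was not tested.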

How the data were processed

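Cy5-labelled RNA of 1 HuH-7-M and 1 HuH-7-P exosome sample was hybridised to a Toray 3D-Gene miRNA array, per the labels' protocols. The authors deposited the scanner output, whose spot median intensity has no background subtracted, per the file headers, and a table of linear intensity values. That table could be rebuilt from the spot medians for 1739 of its 2552 rows (relative tolerance 1e-06), by subtracting a trimmed BLANK mean and scaling to a median of 25. The 818 miRNA probes above the BLANK limit on neither array gave no value to rebuild and were not matched. The row names of the table shift against the scanner output. Of the 6 measured members 4 keep their identifier while miR-365b-5p and the miR-365-3p probe do not. Values were assigned to the probe they were rebuilt from, and no source says which names are right. For the software behind it, the sources used here give no name.

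Here, normexp (nec in limma 3.58.1, R 4.3.3) was fitted on the BLANK spots with 50 added as offset, and values were quantile normalized and put on a log2 scale. Background limits are the mean plus 2 SD after leaving out the top and bottom 5%. The normalization and the 2-fold count were tested on simulated arrays with known changes in bright probes, each larger than 2-fold. The background limits, changes in dim probes and changes under 2-fold were not part of that test. A log2 size of 1 was the threshold. No p-value was computed from 1 array a group, and the number of arrays limits the precision. The members and lists were chosen with earlier results of these data known. All 7 members are named, with the extremes of each list among probes above background on both arrays, miRNAs of a shared seed, neighbours within 1 Mb and the 3 nearest patterns. The pairs of one seed, the guanine classes, the brightness windows, the choice of control probes and the naming of miR-27b-3p were added after the values were seen.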

Additional observations from a re-analysis of the deposited data

How the results depend on the processing

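Values are log2 differences, HuH-7-M less HuH-7-P, and a change counts as a move when it exceeds the spot spread of 0.18 (0.24 over all 24 repeated control probes). Without an offset after quantile normalization, miR-365b-5p was -0.70, miR-193b-3p -0.22 and the miR-365-3p probe -0.65, the member median -0.29, and the array-wide counts 49 higher and 75 lower. With values of the authors' deposited table matched to the spots, miR-365b-5p was -0.70, the miR-365-3p probe -0.65 and the median -0.29. The counts there were 62 higher and 66 lower. These values of the miR-365b-5p and miR-365-3p probes stand there under other identifiers. The row with the identifier of miR-365b-5p was at -0.12. As plain ratios, added after seeing the data, miR-365b-5p was -0.74, miR-193b-5p -0.40, miR-193b-3p -0.25, the miR-365-3p probe -0.69 and the median -0.32, with 53 higher and 71 lower. On the Spike Control scale miR-193a-5p was -0.59, miR-365b-5p -1.09, miR-193b-5p -0.81, miR-365a-5p 0.17, miR-193b-3p -0.63 and the miR-365-3p probe -0.70, the median -0.66, with 1 member past 2-fold lower and 2 miRNAs higher and 73 lower. Removing the scanner's background column left miR-365b-5p at -0.0020, miR-193b-5p at 0.014 and miR-365a-5p at 0.027, with 21 higher. That column read as a signal, also added later, gave miR-193a-5p 0.65, miR-365b-5p -0.87, miR-193b-5p -0.76, miR-193b-3p -0.30 and the miR-365-3p probe 0.42, with 128 higher and 160 lower. Higher and lower counts were 16 and 40 with an offset of 16, 19 and 26 without scaling, 20 and 24 after median scaling and 23 and 22 after 75th percentile scaling. The causes of these moves were not tested, beyond the offset and the scaling that define them. The other 120 values, counts and medians, each under 1 alternative, stayed within that spread or, for counts, within 1.5 times. Of the list medians and single signals, 58 moved and 100 did not, and dim 3p strands limit what can be said of them. No paired analysis was possible because each group has 1 array.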
